A study of Mus musculus with 8 samples.

Results

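A set of 6 genes that mark resident-type macrophages were followed in bone marrow cultures: Adgre1, Selenop, Folr2, Vsig4, Cd209g and Ust. They were chosen by name, with their levels in these libraries known, as a set that includes genes seen mainly in the M-CSF cultures. All 6 were listed in both deposited tables, out of 15377 genes listed in either. Marrow of C57BL/6 mice was cultured for 7 days with 20 ng/mL GM-CSF to give dendritic cells (BMDC), or with 10 ng/mL M-CSF to give macrophages (BMDM). Control mice were Trpv2fl/fl, and knockout mice were Lyz2-Cre;Trpv2fl/fl, so that every library carries loxP-flanked alleles of Trpv2, a calcium-permeable cation channel gene. Cre is driven from the Lyz2 (lysozyme M) locus, active in macrophages and granulocytes and in only some dendritic cells. The presence of Cre and the fall of Lyz2 RNA in the knockout cultures cannot be told apart from the loss of Trpv2. Each of the 4 groups held 2 libraries, and whether a mouse gave more than 1 culture is not stated in the sources.

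Macrophages that live in tissues for long periods carry surface receptors and secreted proteins that freshly recruited monocytes largely lack. M-CSF, through its receptor Csf1r, is the growth factor on which most of them depend, while GM-CSF drives marrow toward cells with dendritic and inflammatory macrophage features. Adgre1 encodes the adhesion G protein-coupled receptor known as the F4/80 antigen, the classical surface marker of mouse macrophages. Vsig4 encodes an immunoglobulin-family complement receptor of liver Kupffer cells and large peritoneal macrophages. Folr2 encodes folate receptor beta, a surface receptor of resident macrophages in many tissues. Cd209g belongs to the mouse family of C-type lectins related to human DC-SIGN. Selenop encodes the secreted selenium carrier selenoprotein P, and Ust encodes a uronyl sulfotransferase that adds sulfate to chondroitin and dermatan sulfate chains.

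The libraries held 15790185 to 19463457 counts. The Trpv2 level, in TMM-scaled CPM (read counts relative to the library size), was 181 and 240 in control and 35.5 and 56.3 in knockout BMDC. In the BMDM it was 273 and 277 in control and 26.4 and 29.1 in knockout cultures, so the labels held in every library. Mean Lyz2 fell as well, from 18600 CPM in control to 153 in knockout BMDC and from 59264 to 258 CPM in the BMDM. Knockout 2 of the BMDC stood apart: its Spearman correlations with the other BMDC libraries were 0.880 to 0.897 over 10775 genes, against 0.979 to 0.984 among the other 3. Interferon-stimulated genes (28 listed) summed to 16793 CPM in that library and to 879 to 2210 CPM in the other BMDC libraries. Macrophage identity was present in both culture types, with the M-CSF receptor gene Csf1r at 1322 to 2036 CPM in the BMDC and 3249 to 3807 CPM in the BMDM. The 17 listed dendritic cell markers summed to 380 to 791 CPM in the BMDC and 270 to 318 CPM in the BMDM. In control cultures the sums were 380 and 470 (BMDC) and 285 and 318 CPM (BMDM). Kit alone made 88.3 and 164 CPM of the former and 1.24 and 0.713 of the latter. Of 14 tested between the control cultures, 4 were lower in the BMDM (Ccl22, Clec9a, Irf4 and Kit) and 0 higher. Over all genes 5.08% were lower and 4.67% higher. With the control libraries alone in the fit, 4 of 13 were lower and 3 higher (Cd83, Irf8 and Xcr1). There 20.6% of all genes were lower and 17.7% higher. Irf4 stood at 8.61 to 12.9 CPM in the BMDC and at 0.0615 to 0.276 in the BMDM, while the defining dendritic cell genes Flt3 and Zbtb46 stayed under 1 CPM in every BMDC library. The 12 listed neutrophil markers summed to 1669 to 2482 CPM in the BMDC, of which the collagenase gene Mmp8 made 1467 to 2176, and to 141 to 162 CPM in the BMDM. Of 9 tested, Ltf and Mmp8 were lower in the BMDM and 0 were higher, against the same shares of all genes (5.08% lower and 4.67% higher). In the fit of control libraries alone, 6 of 6 tested were lower (Camp, Csf3r, Ltf, Mmp8, Ngp and S100a8), where 20.6% of all genes were. In the BMDC S100a9 ranged from 0.217 to 53.8 CPM and Ngp from 0.812 to 27.2, and Ly6g stayed at 0.535 or less. The 12 stromal and endothelial markers summed to 33.9 to 40.0 CPM in the BMDC and 5.97 to 9.20 in the BMDM, and the 10 mast cell, basophil and eosinophil markers to 8.61 to 50.2 and 2.20 to 3.32 CPM. The 7 B and T cell markers summed to 31.7 CPM in BMDC knockout 2, to 2.54 to 8.47 in the other BMDC libraries and to 26.7 to 34.7 in the BMDM. The part of these cells in the differences between culture types was not tested. In RNA from a whole culture, fewer cells of a type and less RNA per cell cannot be told apart.

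The 6 genes lie on 6 chromosomes and are protein-coding in GENCODE M21. As deposited, Adgre1 (ENSMUSG00000004730) spans 57665691 to 57790527 on the plus strand of chromosome 17, and Selenop (ENSMUSG00000064373) spans 3298029 to 3309990 on the plus strand of chromosome 15. Folr2 (ENSMUSG00000032725) spans 101489195 to 101506401 on the minus strand of chromosome 7, and Vsig4 (ENSMUSG00000044206) spans 95290809 to 95337044 on the minus strand of chromosome X. Cd209g (ENSMUSG00000079168) spans 4184098 to 4187707 on the plus strand of chromosome 8, and Ust (ENSMUSG00000047712) spans 8080520 to 8394589 on the minus strand of chromosome 10. The span lengths equal those of GENCODE M21 on GRCm38 for all 6, but each start is shifted, by 29482 bases at the least (Selenop), so the build of these coordinates is not settled.

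Only part of the set was abundant. Per kilobase of gene length, the deposited FPKM values of the BMDM controls put Adgre1 first at 1255 ± 76.1 FPKM (SD, n = 2 throughout), followed by Selenop at 290 ± 48.6 and Ust at 9.84 ± 1.89. Folr2 followed at 1.32 ± 0.839 FPKM, Cd209g at 0.765 ± 0.489 and Vsig4 at 0.382 ± 0.421. The libraries of the first 3 genes did not overlap, while Folr2 overlapped with Cd209g, and Cd209g with Vsig4. In the BMDC controls Adgre1 was again first at 457 ± 162 FPKM and Selenop second at 47.9 ± 21.8. Vsig4 and Ust overlapped there, at 0.294 ± 0.416 and 0.135 ± 0.0284 FPKM, and Folr2 and Cd209g were at 0. In every library Adgre1 ranked at percentile 98.9 or higher of its table.

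The levels between culture types chose most of these genes, so they are described here without a test. Adgre1, the F4/80 gene, stood at 1688 and 1050 CPM in control BMDC, 1707 and 1341 in knockout BMDC, 4280 and 4355 in control BMDM and 4153 and 3987 in knockout BMDM. Every BMDM library was above every BMDC library, and the ratio of means was 3.15 in control and 2.67 in knockout cultures. The F4/80 gene was thus strongly expressed in the GM-CSF cultures too.

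Selenop stood at 84.4 and 171 CPM in control BMDC, 160 and 119 in knockout BMDC, 799 and 947 in control BMDM and 950 and 822 in knockout BMDM. The BMDM were higher by 6.85 times in control and 6.36 times in knockout cultures, again with no overlap. Among the BMDC, control 1 was the lowest and control 2 the highest, so that the controls alone spanned the whole range of that culture type.

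Ust had the largest ratio among the members with reads in every library. It had 9 and 14 reads in control BMDC, 13 and 10 in knockout BMDC, 628 and 820 in control BMDM and 819 and 787 in knockout BMDM. On the CPM scale this was 0.487 to 0.696 against 43.3 to 53.1. The control ratio was 82.5, and the ratio of summed counts had a 95% interval of 54.5 to 130. In knockout cultures the ratio was 71.5. All such intervals cover counting error only.

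Folr2 and Cd209g were low but detected in every library of the M-CSF cultures, and at or below the limit of detection in the GM-CSF cultures. Folr2 had 0 reads in 3 BMDC libraries and 1 read in knockout 2, against 18 and 47 reads in control BMDM and 35 and 31 in knockout BMDM. Against an assumed floor of 3 counts over the BMDC controls, the control BMDM were 28.2-fold higher. The exact 95% interval of the ratio of the counts themselves starts lower, at 22.3. In the knockouts the ratio of summed counts was 67.8, with a 95% interval of 11.8 to 2719. Cd209g had 0 reads in 3 BMDC libraries and 1 read in knockout 1, against 64 and 24 reads in control BMDM and 18 and 23 in knockout BMDM. The control BMDM were 38.2-fold higher against the same assumed floor (exact 95% interval of the ratio from 30.4), and the knockout ratio was 42.1 (95% interval 7.15 to 1704).

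Vsig4 did not follow the others. The complement receptor gene had 0 and 17 reads in control BMDC, 5 and 12 in knockout BMDC, 2 and 16 in control BMDM and 12 and 7 in knockout BMDM. The culture types overlapped, with 0 to 0.836 CPM in the BMDC and 0.138 to 1.04 CPM in the BMDM. The control ratio of summed counts was 1.38 with a 95% interval of 0.671 to 2.85. In knockout cultures the ratio of means was 1.06, and it was 2.29 without knockout 2 of the BMDC. At this depth a culture-type difference in Vsig4 was not detectable.

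**Figure D1:**
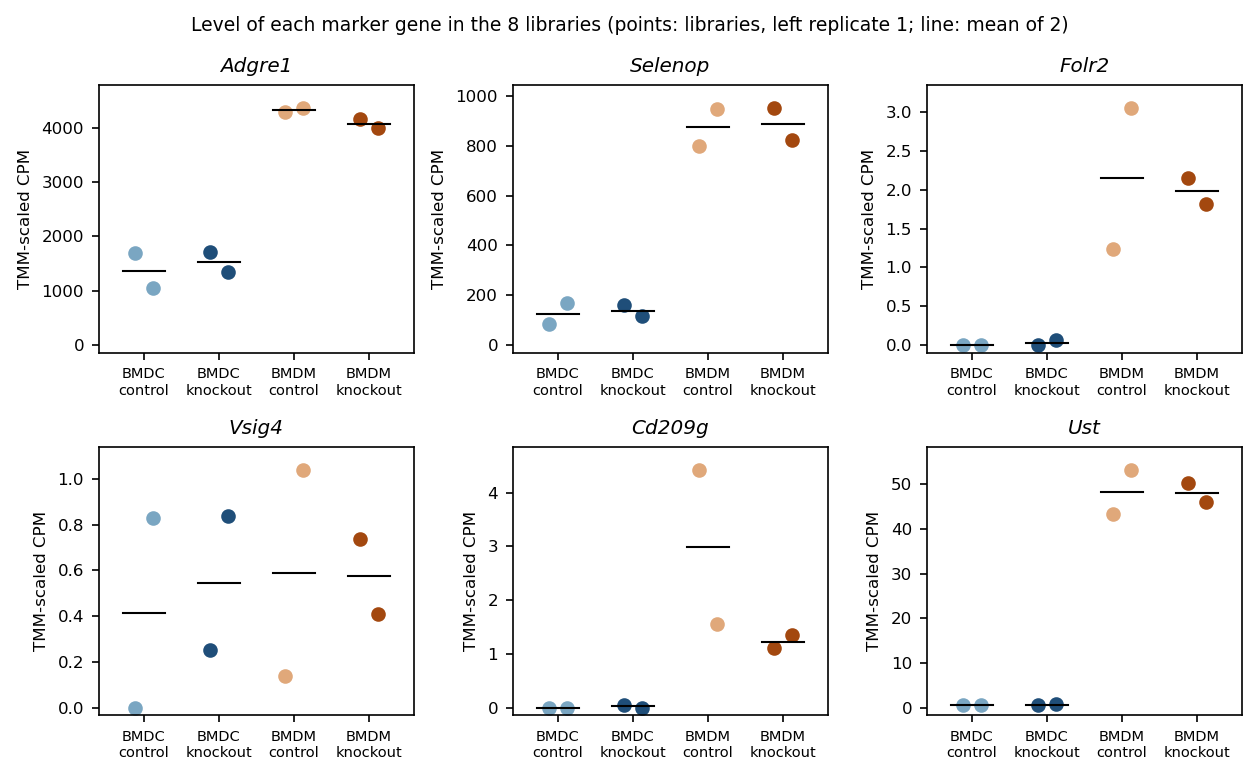
Level of each of the 6 genes in TMM-scaled CPM (vertical axis, linear, a separate scale for each gene) in the 4 groups. Points are libraries, with replicate 1 on the left, and lines are means of 2. Adgre1, Selenop, Folr2, Cd209g and Ust are higher in all 4 BMDM libraries than in any BMDC library, while the Vsig4 groups overlap and stay near or under 1 CPM.

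Stretches before the annotated start are shown for 3 genes that stood higher in every BMDM library and span the range of base composition among the members. They are the 250 bases before the outermost start of each gene in RefSeq on GRCm38.p6, read on the gene's strand. Capitals mark GGAAGT, or its reverse complement ACTTCC, the core of the recognition sequence of the myeloid ETS factor PU.1. Selenop lies at chr15:3270517-3270766 on the plus strand, Folr2 at chr7:101857191-101857440 on the minus strand and Ust at chr10:8518826-8519075 on the minus strand.
Selenop: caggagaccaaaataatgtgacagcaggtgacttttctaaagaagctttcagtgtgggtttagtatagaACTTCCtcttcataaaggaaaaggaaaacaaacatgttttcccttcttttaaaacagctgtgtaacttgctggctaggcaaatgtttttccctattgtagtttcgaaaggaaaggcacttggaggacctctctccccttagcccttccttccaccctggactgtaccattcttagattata
Folr2: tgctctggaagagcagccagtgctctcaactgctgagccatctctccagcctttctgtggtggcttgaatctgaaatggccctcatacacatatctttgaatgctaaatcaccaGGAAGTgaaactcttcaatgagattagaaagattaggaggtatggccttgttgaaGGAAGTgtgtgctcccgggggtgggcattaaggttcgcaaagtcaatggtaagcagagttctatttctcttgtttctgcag
Ust: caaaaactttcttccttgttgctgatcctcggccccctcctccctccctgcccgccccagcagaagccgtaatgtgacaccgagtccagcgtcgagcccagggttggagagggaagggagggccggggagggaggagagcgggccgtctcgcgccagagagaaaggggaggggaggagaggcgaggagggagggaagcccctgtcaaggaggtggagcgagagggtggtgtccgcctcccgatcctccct
The Ust stretch is 66.4% G and C, against 46.4% for Folr2 and 40.8% for Selenop. GGAAGT on either strand was found once in Selenop, 181 to 176 bases before the start, and at 2 positions in Folr2, 136 to 131 and 81 to 76 bases before it. It was also found in Vsig4 and in neither Ust nor Cd209g, so 3 of the 5 members with a sequence hold it, against 19.9% of 27025 promoters of the same length. TGCTGA, the core of sites bound by MAF proteins, was in Folr2 and Ust, 2 of 5 members, against 15.8% of promoters. CACGTG, the E-box of MITF and TFE factors, was in 0 of 5 members, against 6.04% of promoters. The 3 motifs do not overlap one another in these stretches, and a match describes the letters alone. The motifs were chosen with the expression values known. Adgre1 had no entry in the table of promoters.

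Across the 4 BMDM libraries the highest level was 1.09 times the lowest for Adgre1, 1.19 times for Selenop and 1.23 times for Ust. For the genes of low count it was 2.45 times for Folr2, 3.98 times for Cd209g and 7.52 times for Vsig4. BMDM control 1 held the lowest level of Selenop, Folr2, Vsig4 and Ust, and the highest of Cd209g. BMDM control 2 held the highest level of Adgre1, Folr2, Vsig4 and Ust. Folr2, Vsig4 and Ust had the same order of the 4 BMDM libraries, Selenop differed from it in its upper pair, and Adgre1 and Cd209g had other orders. In the BMDC the highest level was 1.63 times the lowest for Adgre1, 2.02 times for Selenop and 1.43 times for Ust.

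**Figure D2:**
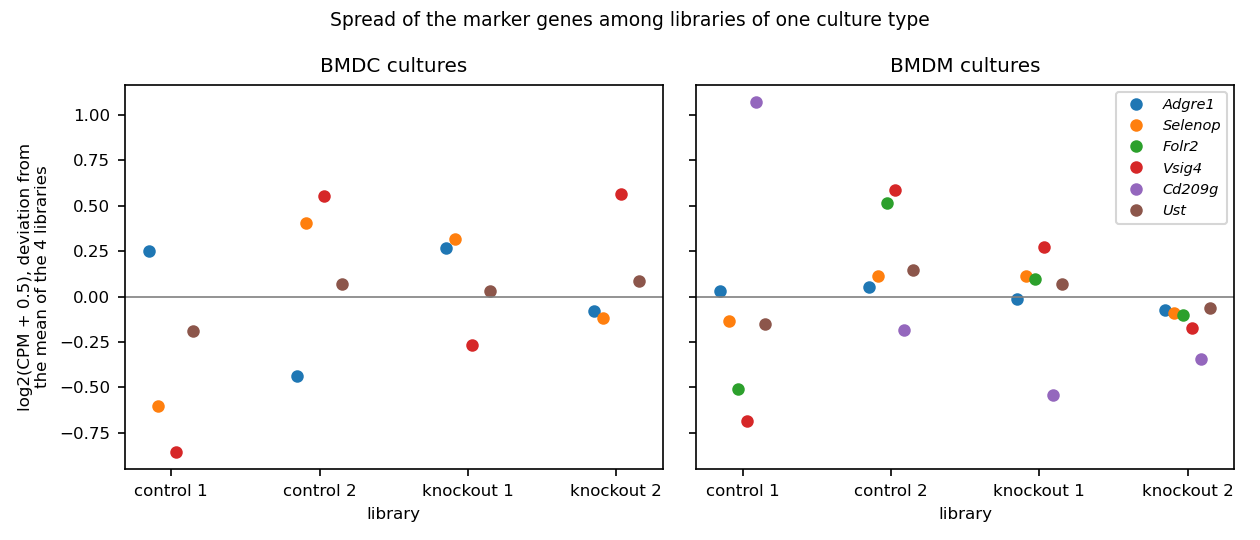
Deviation of log2(CPM + 0.5) from the mean of the 4 libraries of a culture type (vertical axis) for each library (horizontal axis), with a colour for each gene. Folr2 and Cd209g, with 1 read each in the BMDC, are left out of the left panel. In BMDM control 1, Cd209g lies above the mean while Selenop, Folr2, Vsig4 and Ust lie below it.

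The knockout comparison asks whether these genes differed between knockout and control cultures, which differ in Trpv2, Cre and Lyz2 RNA together. None of the 6 passed in BMDC or BMDM when edgeR's quasi-likelihood test was applied, at an adjusted p under 0.05 (Benjamini-Hochberg, over all genes). In the BMDM, 0 of 6 members passed, where 0.109% of 11024 genes did (12 genes, with 0.0454% higher and 0.0635% lower). For the 3 abundant members the intervals were narrow. Adgre1 had a log2 fold change of −0.09 (95% interval −0.42 to 0.25), Selenop of 0.02 (−0.31 to 0.35) and Ust of −0.0011 (−0.36 to 0.35), knockout over control. Folr2 had −0.12 (−1.04 to 0.81) and Vsig4 −0.06 (−1.61 to 1.49), so a log2 change of −1 lies within both intervals. Both knockout libraries were below both controls for Adgre1 and, as given below, for Cd209g. The share of all genes separated in this way was not counted, so no decrease is read from it. The groups overlapped for Selenop, Folr2, Vsig4 and Ust. The sign of these 4 depended on the library left out: without control 1 they were −0.08, −0.60, −0.83 and −0.12 in that order, and without control 2 they were 0.15, 0.68, 1.99 and 0.16.

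Cd209g had the largest difference of the set in the BMDM, with a mean of 2.98 ± 2.02 CPM in control and 1.23 ± 0.167 CPM in knockout BMDM. Its log2 fold change was −1.27 (SE 0.48, unadjusted p = 0.0128, adjusted p = 1.00 by edgeR), with both knockout libraries below both controls. The difference rested on control 1: with that library left out the log2 fold change was −0.32 (adjusted p = 1.00), and leaving out control 2 gave −1.84 (adjusted p = 0.16, the smallest over the alternatives). Cd209f, its relative in the same lectin family, was listed in the BMDM table only, with control levels of 5.72 and 3.24 CPM and knockout levels of 2.83 and 4.21 CPM, and did not pass (log2 −0.34, SE 0.35). Control 1 was the highest for this gene too. It was also the highest for the scavenger receptor gene Marco, at 1210 CPM against 521 to 808 in the other BMDM libraries, and for the summed interferon-stimulated genes, at 4351 CPM against 2580 to 4028. Their part in the Cd209g difference was not tested. Genes of this lectin family are similar in sequence, and how reads shared among them were counted is not stated in the sources, so their values are uncertain.

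In the BMDC, 4 of 6 members passed the filter on low counts and could be tested, and 0 of these passed the threshold, where 0% of 11357 genes did. Across all genes 128 had an unadjusted p under 0.05, and DESeq2 passed 3. Adgre1 had a log2 fold change of 0.16 (95% interval −0.95 to 1.27), Selenop of 0.14 (−0.99 to 1.27), Ust of 0.21 (−1.70 to 2.11) and Vsig4 of 0.34 (−3.30 to 3.98). Knockout and control libraries overlapped for all 4. Leaving out single libraries turned each sign: Adgre1 went to −0.15 without control 2 and −0.06 without knockout 1, Selenop to −0.28 without control 1 and −0.13 without knockout 1, and Ust to −0.0084 without control 1. Vsig4 went to −0.63 without control 1 and −0.70 without knockout 2, and without control 2, which leaves 0 control reads, its fitted value of 6.24 is no bound. Selenop was 0.72 and Adgre1 0.55 without control 2 and control 1, respectively. These intervals are wider than in the BMDM, with a biological coefficient of variation of 0.406 against 0.134. For Folr2 and Cd209g, with 0 reads in the controls and 1 in the knockouts, no fold change is given.

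**Figure D3:**
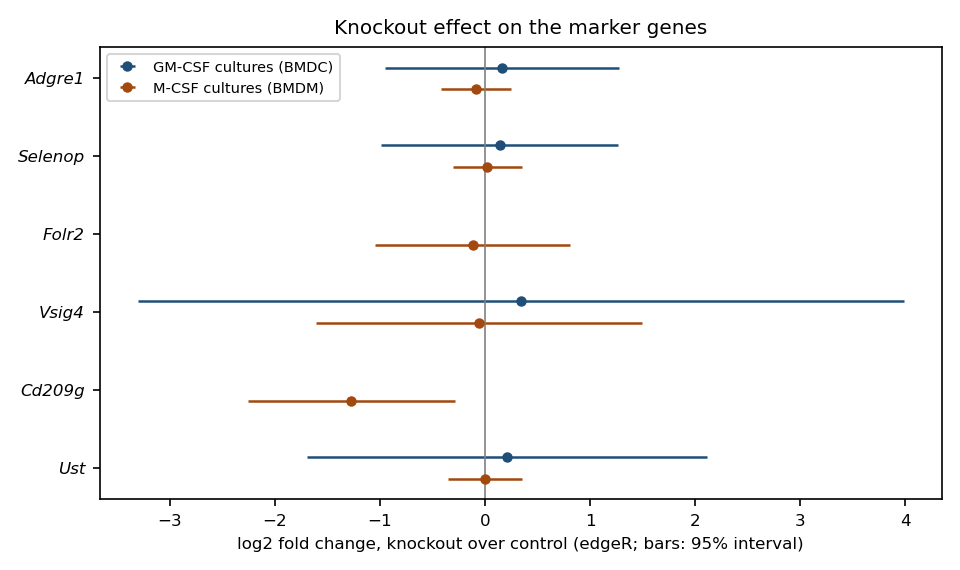
Log2 fold change of knockout over control (horizontal axis) for each gene, from edgeR fits of the BMDC (blue) and the BMDM (brown), with 95% intervals as bars. Folr2 and Cd209g have no BMDC value because they did not pass the filter on low counts. The bars of Adgre1, Selenop and Ust are narrow around 0 in the BMDM and wider in the BMDC, and Cd209g in the BMDM is the value farthest from 0.

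Whether the knockout effect differed between culture types (BMDM minus BMDC) was tested in a joint fit of all 8 libraries. Of the 4 members that could be tested in the BMDC 0 passed, where 0% of 11671 genes did, with 225 genes at an unadjusted p under 0.05 and 0 by DESeq2. The difference was −0.24 on the log2 scale for Adgre1 (95% interval −1.25 to 0.77), −0.11 for Selenop (−1.28 to 1.07), −0.19 for Ust (−1.12 to 0.74) and −0.37 for Vsig4 (−4.95 to 4.22). Folr2 and Cd209g entered this fit through their BMDM reads alone, and their values (−2.46, SE 2.00, and −3.58, SE 2.30) rest on 1 BMDC read each; neither passed. No member passed in any of the 3 comparisons under any alternative tried. In the authors' deposited table the adjusted p-value of each member was 1 in both culture types.

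A wider list of resident-type macrophage genes, without the 6 members, was read beside them. Of its 45 genes 41 were listed, and 37 could be tested between control BMDM and control BMDC in the joint fit. In it 13 were higher in the BMDM and 1 was lower, where 9.75% of all 11671 genes passed (4.67% higher and 5.08% lower). The median log2 fold change was 1.02, against −0.02 over all genes. This list was also chosen with results of these data known. With the control libraries alone in the fit, 20 were higher and 1 lower, where 17.7% and 20.6% of 11252 genes were. The number of genes passing in the joint fit varied from 218 without BMDM control 1 to 4877 without BMDC knockout 1.

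The genes of the list that were higher included the 3 chains of complement C1q, secreted by tissue macrophages. C1qb stood at 3.19 and 44.8 CPM in control BMDC and 942 and 735 in control BMDM (log2 5.12, SE 1.28, adjusted p = 0.048 by edgeR). The lipid carrier gene Apoe rose from 35.0 and 358 to 20198 and 17251 CPM (log2 6.57, SE 1.46, adjusted p = 0.032), and the phospholipid transfer protein gene Pltp from 4.33 and 8.23 to 481 and 463 CPM (log2 6.23, SE 0.64, adjusted p = 0.0021). Gas6, a ligand of the receptors Axl and Mertk that bridges to dying cells, rose from 5.14 and 11.1 to 262 and 323 CPM (log2 5.16, SE 0.48, adjusted p = 0.0016). Higher as well were Igf1 (log2 4.11), Itga9 (3.77), the liver X receptor gene Nr1h3 (3.37), the scavenger receptor family genes Marco (3.13), Cd5l (2.96) and Stab1 (1.44), and Cbr2 (5.87). The platelet factor gene Pf4, also expressed by some resident macrophages, went the other way, from 778 and 1228 CPM in control BMDC to 35.4 and 22.9 in control BMDM (log2 −5.10, SE 0.54, adjusted p = 0.0022).

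Markers of particular resident populations differed widely in level. In the BMDM Cd5l stood at 166 to 205 CPM, Siglec1 at 103 to 160 and Marco at 521 to 1210. The microglial gene Tmem119 stood lower in every BMDM library (22.3 to 26.8 CPM) than in any BMDC library (31.1 to 63.3 CPM). Others had few reads. Timd4, a phosphatidylserine receptor of long-lived resident cells, had 8 reads over all 8 libraries. Lyve1, the hyaluronan receptor of perivascular macrophages, was listed in the BMDC table only, with 4 reads. Cd163, a hemoglobin scavenger receptor, stayed at 1.46 to 5.17 CPM in all 8 libraries. Clec4f, Cd209b, Gata6 and Sall1 had no row in either table and were not analysed here. High Adgre1 and Selenop and abundant C1q and Apoe in the BMDM thus stood beside Folr2, Cd209g and Vsig4 at a few CPM or less. The members and the list were chosen with results of these data known, so these levels do not test the label of the set.

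**Figure D4:**
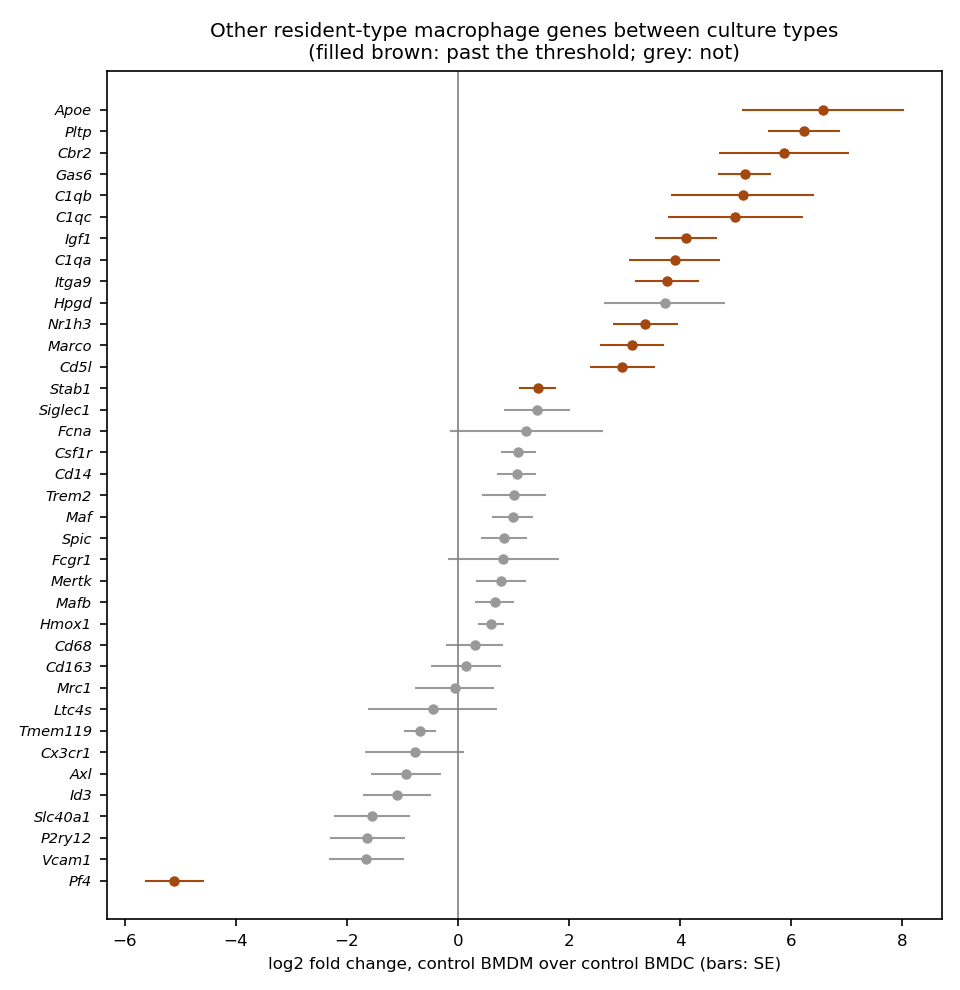
Log2 fold change of control BMDM over control BMDC (horizontal axis, bars are SE) for the 37 other resident-type macrophage genes tested in the joint fit. Brown marks the 13 genes higher and the 1 gene lower past the threshold, and grey marks the rest. Apoe, Pltp and Cbr2 lie farthest to the right and Pf4 farthest to the left.

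In the knockout comparisons 0 genes of the wider list passed. In the BMDM 38 were tested, with a median log2 fold change of −0.02 (−0.0068 over all genes). The smallest p was that of Axl, a receptor kinase for Gas6, with control levels of 12.8 and 14.0 CPM and knockout levels of 23.1 and 21.3 CPM (log2 0.73, SE 0.20, adjusted p = 0.51 by edgeR). In the BMDC 35 were tested, with a median of 0.50 (0.02 over all genes). The median was −0.14 without knockout 2, with 0 of 36 passing (0% of 11687 genes), and 0.84 without knockout 1, with 8 of 38 higher, where 27.5% of 11692 genes passed (12.7% higher and 14.8% lower). Those 8 were Siglec1, Fcgr1, Trem2, Nr1h3, Cd68, Cbr2, Pf4 and Stab1, and that fit holds knockout 2 as its only knockout library. All 28 interferon-stimulated genes listed, among them Siglec1, passed in it too. Fcgr1, a high-affinity IgG receptor gene, stood at 65.6 and 130 CPM in control BMDC, 97.3 in knockout 1 and 1554 in knockout 2. Adgre1 and Selenop in knockout 2, at 1341 and 119 CPM, were in contrast within the range of the other BMDC libraries.

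Genes related to the members by function were compared between control BMDM and control BMDC, against the 4.67% of all genes that were higher and 5.08% lower. The lectin relatives of Cd209g could not be tested there. Beside Adgre1, the family members Adgre5 and Adgre4 were not called (log2 −0.42, SE 0.24, and −0.61, SE 0.79). Of the 7 folate genes tested 2 were higher in the BMDM: the folate transporter gene Slc46a1, from 4.06 and 3.16 to 21.9 and 20.6 CPM (log2 2.56, SE 0.44, adjusted p = 0.013 by edgeR), and Slc46a3 (log2 1.87, adjusted p = 0.0499). Folr1, the other folate receptor, had 16 reads over all 8 libraries. Around Vsig4, 12 complement genes were tested, with 2 higher and 2 lower. The complement-protecting membrane protein genes Cd55 (log2 4.62) and Cd59a (2.37) were higher, and C3, the source of the Vsig4 ligands, and Itgam, a chain of another complement receptor, were lower (−2.16 and −2.01). C3 stood at 3361 and 1791 CPM in control BMDC and 591 and 561 in control BMDM.

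Of 22 selenoprotein and selenium-handling genes beside Selenop, 1 was higher and 1 lower, near the share of all genes (9.75%). The endoplasmic reticulum selenoprotein gene Selenom was the one higher (log2 3.16, SE 0.75, adjusted p = 0.042 by edgeR) and Lrp8, a receptor that takes up selenoprotein P, the one lower (−1.63, SE 0.32, adjusted p = 0.022). The abundant selenoprotein genes Gpx1 and Gpx4 were not called (−0.50, SE 0.40, and 0.12, SE 0.42). Among 22 genes of chondroitin and heparan sulfate synthesis and sulfation, read beside Ust, 4 were higher (Xylt2, Chst7, Ndst2, Chpf) and 4 lower (Chst11, Chst15, Xylt1, Srgn), where 4.67% and 5.08% of all genes were. The chain-initiating enzymes went opposite ways, with Xylt2 from 85.7 and 82.9 to 845 and 712 CPM (log2 3.21, SE 0.38) and Xylt1 from 28.5 and 54.9 to 8.76 and 12.4 CPM (log2 −1.98, SE 0.45). The chondroitin sulfotransferase gene Chst11, at 32.6 and 52.3 CPM in control BMDC, was at 3.93 and 5.70 in control BMDM (log2 −3.14, SE 0.34). In the knockout comparisons 0 genes of these 5 lists passed in either culture type. The complement regulator gene Cd59a had the smallest p in the BMDM, with control levels of 6.21 and 5.64 CPM and knockout levels of 11.1 and 12.2 CPM (log2 0.98, SE 0.25, adjusted p = 0.32 by edgeR).

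The genes most like each member over the 8 libraries were found by the root mean square difference of centred log2(CPM + 0.5) values among 10775 genes. For Adgre1 they were Itgal (0.11), Fgd3, Serpinb9, Smyd2 and Stau2. Itgal, an integrin chain of leukocytes, stood at 145 to 227 CPM in the BMDC and 486 to 556 in the BMDM. For Selenop they were Prokr1 (0.20), Zfyve28, Slc12a7, Sesn1 and B3galnt1, and for Folr2 Gpr155 (0.23), Pappa2, Slc9b2, Nectin1 and Kif5a. For Cd209g they were Chst7 (0.35), Maged2, Tnip3, Gm1673 and Ddah2. For Ust they were Gas6 (0.34), Slc35g1, Smagp, Fgf11 and Pltp, of which Gas6 and Pltp are also on the wider list. Between members the difference was smallest for Selenop and Folr2 (0.44) and largest for Adgre1 and Ust (1.95). Vsig4, with a mean under 1 CPM, was not compared. The 8 libraries fall into 2 culture types, which these values share. Folr2 and Cd209g stood at 0 to 0.0696 and 0 to 0.0502 CPM in the BMDC, below the added 0.5. That constant limits their contrast between culture types, so their closeness to Selenop and to the genes named depends on it.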

How the data were processed

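Stranded mRNA libraries were sequenced, per the labels' protocols, then cutadapt trimmed the reads and HTSeq counted them per gene; the aligner, the strand setting of the counting and all versions are not stated in the sources. The authors deposited raw counts and FPKM per gene, per the file headers, in 1 table per culture type, of 14755 (BMDC) and 14311 (BMDM) genes. The FPKM were scaled by the authors to gene length and library. The authors' deposited p-values are quoted as such. The protocol names GRCm38, while GRCm39 stands beside it in the submitters' processing notes.

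Levels are CPM scaled by TMM over all 8 libraries. Counts were tested with edgeR 4.0.16 (R 4.3.3), after filterByExpr (minimum count 10), knockout against control within each culture type. A joint fit over the 13689 genes in both tables, before the filter, served the difference of knockout effects and, for genes other than the members, control BMDM against control BMDC. Intervals of fold changes use edgeR's SE and degrees of freedom. The scripts were tested on simulated data. Alternatives included DESeq2 1.42.0, its size factors, other filters, a replicate block, a gene-length correction and leaving out single libraries. The members and gene lists were chosen with earlier results of these data known. The rule named, from each list, genes past the threshold (up to 8) or else up to 3 with the smallest p, of which some are given, and 5 genes of likest pattern per member. Fcgr1, Gpx1, Gpx4, Timd4, Lyve1, Cd163, Siglec1, Folr1, Flt3, Zbtb46, Ly6g, S100a9, Ngp, Tmem119 and Csf1r were named after their values were seen. With 2 libraries per group, p-values measure the spread between these samples. In the joint fit the 4 groups share the estimate of that spread. The p-values of control BMDM against control BMDC there thus rest on the knockout libraries too.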

Additional observations from a re-analysis of the deposited data

How the results depend on the processing

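No member passed the threshold in a knockout comparison or in the difference between them under any alternative run. The counts over all genes moved. In the BMDC, where 0 genes passed, DESeq2 passed 3, no filter on low counts 1, the joint fit 1 and the replicate block 2. Without a library the count was 0 to 3215 (3215 without knockout 1, 5 without control 1, 16 without control 2). In the BMDM, 12 became 2 in the joint fit, 11 with the replicate block and 11 to 34 without a library (34 without knockout 2); a crossed block, chosen after seeing the data, gave 29. Deviations of same-numbered libraries correlated at −0.01 (BMDC) and −0.29 (BMDM), and between groups of different culture types at −0.52 to 0.48 (0.48 for both knockouts, 0.13 for both controls). Not every value exceeds 0.1, so the numbers were not taken as pairs. For the difference of knockout effects the count was 0 to 3733 without a library (3733 without BMDC knockout 1). For control BMDM against control BMDC, 1138 became 2111 with DESeq2, 824 with the replicate block and 4311 in the fit of control libraries, also chosen after seeing the data. There it was 218 to 4877 without a library: 218 and 223 without BMDM controls 1 and 2, 383 and 473 without the BMDC controls, 582 and 574 without the BMDM knockouts, 4877 and 4866 without the BMDC knockouts. The cause of these moves was not tested. The log2 ratio of Vsig4 in knockout BMDM to knockout BMDC went from 0.08 to 1.19 without BMDC knockout 2. Depth limits Folr2, Cd209g and Vsig4, with at most 64 reads in a library.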
